A study of Rattus norvegicus with 4 samples.

Results

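The potassium channel genes described here are those listed with a symbol that begins with Kcn, the prefix shared by the pore subunits of potassium channels and by several of the proteins that bind them. They take 60 of the 15731 genes in the deposited RPKM values and cover 59 symbols, because Kcnk6 is listed under 2 Ensembl identifiers. Of these, 19 had an RPKM above 1.0 in at least 1 of the 4 libraries and entered the fold changes, and 41 did not. RPKM is the number of reads on a gene scaled by the length of the gene and by the size of the library, so levels of different genes can be set side by side.

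RNA came from ventricular cardiomyocyte cultures of wild-type Wistar rats at postnatal day 1, and the protocols name both day 0 and day 1 for the hearts. One day after plating, cells received a mimic, a short synthetic double-stranded RNA that acts as the microRNA (miRNA), of one of the cluster members miR-25, miR-93 and miR-106b, or of the nematode miRNA cel-miR-67 as control, each in Lipofectamine RNAiMAX, and RNA was harvested 72 h after transfection. The mimic concentration is given as 25 nM in one protocol and in mM units in another. Each mimic has 1 library, so the values below carry no replicate error and no test, and the 95% exact (Clopper-Pearson) intervals cover counting error only. Cells were enriched for cardiomyocytes by a plating step that removes attached cells, which leaves some other heart cells in the dishes. All 3 comparisons use the same control library, so their values are given side by side and are not independent of each other.

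Potassium channels set the resting potential of heart muscle and carry the currents that end its action potential. Transient outward channels act early, the delayed rectifiers that Kcnq1 and Kcnh2 form act during the plateau, and inward rectifiers hold the cell at rest and complete the last phase of repolarization. In neonatal ventricle this set of channels is still maturing towards its adult composition. A miRNA pairs through bases 2 to 8 of its 5′ end, the seed, with sites in mRNAs, most often in the 3′UTR, and lowers the stability or translation of those mRNAs. The mature rat sequences of the 3 cluster members, from RefSeq (GRCr8 build, minus strand), are shown because the comparisons below follow the seed, written in capitals. The mimics carry the human names hsa-miR-25-3p, hsa-miR-93-5p and hsa-miR-106b-5p. The mature sequences lie at chr12:22157103-22157123 for miR-106b, chr12:22156894-22156916 for miR-93 and chr12:22156652-22156673 for miR-25.
rno-miR-106b-5p: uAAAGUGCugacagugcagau
rno-miR-93-5p: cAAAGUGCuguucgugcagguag
rno-miR-25-3p: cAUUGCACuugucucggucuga
The seeds of miR-106b and miR-93 are identical over 7 of 7 bases, whereas miR-25 shares 3 of 7 seed positions with either of them. Seed matches in the channel mRNAs were not analysed here.

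The libraries held between 15175185 and 18797234 recovered reads on listed genes, of which 6033 to 8413 fell on Kcn genes. The study's methods state a far lower number of reads per sample, and this difference was not resolved. Cardiomyocyte markers were the most abundant of the marker lists in the control library, with a summed level of 6009 RPKM over 7 genes found, against 815 RPKM for 7 fibroblast genes, 774 RPKM for 8 smooth muscle and pericyte genes and between 1.77 and 15.2 RPKM for endothelial, macrophage, and neuron and glia genes. The miR-25 library stood apart in these lists. Its summed cardiomyocyte level was 0.613 times the control, with 7 of 7 genes past 1.3-fold lower and Tnni3, cardiac troponin I, at 15.9 RPKM against 351. Its fibroblast sum was 0.377 times the control, with 7 of 7 genes past 1.3-fold lower, and its smooth muscle and pericyte sum was 2.69 times the control, with 6 of 8 higher. With miR-106b and miR-93 the cardiomyocyte sums were 0.951 and 0.937 times the control and the smooth muscle sums 0.920 and 0.784 times. No marker found in the values was at 0 in any library. Fewer cells of a type and less RNA per cell cannot be told apart in such bulk samples, and the part these shifts had in the channel values was not tested.

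Across the 19 genes above the RPKM limit, 6 were more than 1.3-fold higher and 3 more than 1.3-fold lower with miR-106b, where 13.8% and 13.9% of all 12185 genes tested passed in the same directions. With miR-93, 8 were higher and 2 lower, beside 17.2% and 16.9% of 12187 genes. With miR-25, 4 were higher and 7 lower, beside 20.9% and 24.2% of 12183 genes. The 4 higher with miR-25 thus made up 21.1% of the 19, near the share of all genes, whereas the 8 higher with miR-93 made up 42.1%. In 5 of the 19, Kcnj12, Kcnk2, Kcnq5, Kcnk3 and Kcnd3, the control level was at or below 1.0 RPKM, so that they passed the limit only through a mimic library and had to be higher there, and these counts are a description of the list only. Their median on the log2 scale was −0.04 for miR-106b, 0.25 for miR-93 and −0.19 for miR-25, while the medians over all genes tested lay between −0.01 and 0.00. The direction with miR-93 depended on which members entered, since its median was −0.06 over the 14 genes above 1.0 RPKM in the control library, of which 4 were past 1.3-fold higher, and −0.11 over 59 genes without the RPKM limit. The median with miR-106b was −0.06 and 0.03 under the same changes. Of the 19, 15 were past 1.3-fold with at least 1 mimic, and the same share over all genes was not computed.

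**Figure D1:**
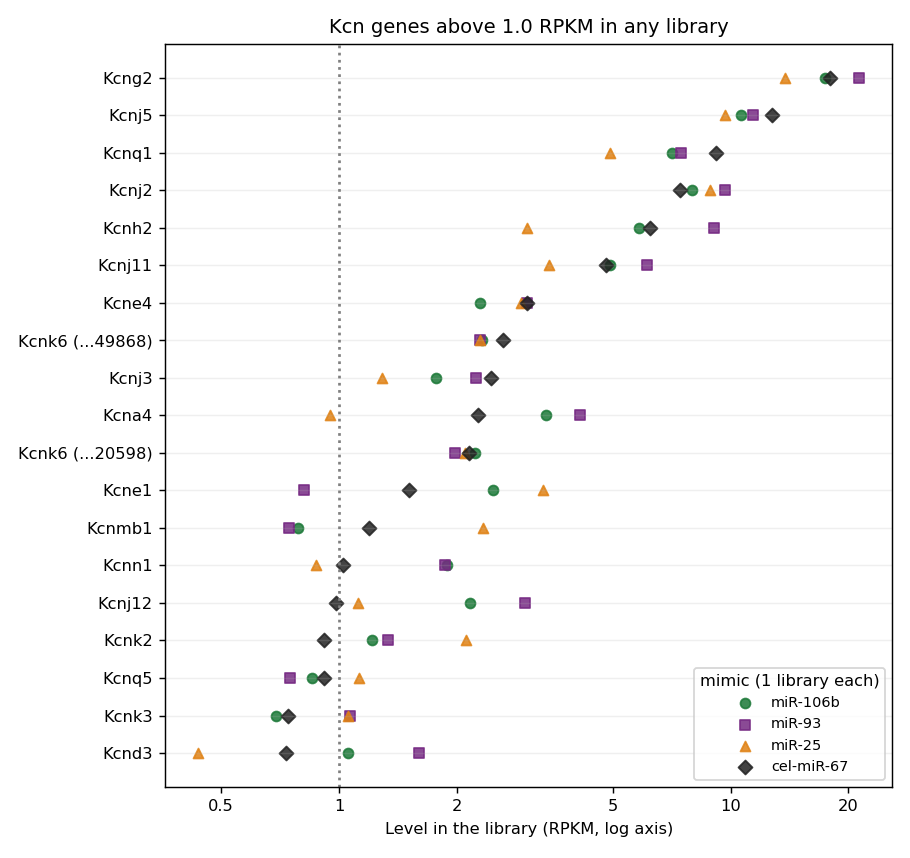
Level in RPKM (horizontal log axis) of the 19 Kcn rows above 1.0 RPKM in any library, ordered by their control level, with 1 marker for each library and a dotted line at 1.0 RPKM. The miR-93 and miR-25 markers lie far apart for Kcna4, Kcne1, Kcnd3, Kcnmb1, Kcnh2 and Kcnj12, while both Kcnk6 rows stay close together.

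Of the transient outward channel genes, Kcna4 and Kcnd3 were higher with both miR-106b and miR-93 and lower with miR-25. Kcna4 encodes a pore subunit of the slowly recovering transient outward current, and its level was 2.27 RPKM with cel-miR-67, 3.39 with miR-106b, 4.12 with miR-93, and 0.9505 under miR-25. The mimics with the shared seed thus stood above the control and miR-25 stood below it. Its log2 fold change was 0.58 (95% exact interval 0.30 to 0.86), 0.86 (0.59 to 1.14) and −1.26 (−1.66 to −0.86) in that order of mimics. Kcnd3 encodes a pore subunit of the rapidly recovering transient outward current, at 0.734 RPKM in the control, 1.05 with miR-106b, 1.61 with miR-93, and 0.438 under miR-25. Its control level was under the RPKM limit, so it entered the 19 only by being higher in a mimic library. The order of the 4 libraries was the same as for Kcna4, and the log2 fold changes were 0.52 (0.21 to 0.83), 1.13 (0.84 to 1.43) and −0.75 (−1.14 to −0.36). These 2 genes were the only members among the 19 that were past 1.3-fold higher with both miR-106b and miR-93 and past 1.3-fold lower with miR-25. Their ratio within a library, Kcnd3 over Kcna4, was 0.323 in the control and 0.311, 0.390 and 0.460 in the mimic libraries in the same order, and the 4 intervals overlapped. Kcnip2, the auxiliary subunit that carries Kcnd channels to the surface in ventricle, stayed under the RPKM limit with 11 reads in the control and 20, 30 and 4 reads in the same order of mimics, for 0.106, 0.147, 0.240 and 0.0320 RPKM. Kcnd1, another Kcnd pore subunit, was also under the limit. It had 6 reads in the control and 20, 16 and 19 in the same order of mimics, and so was not lower with miR-25.

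Kcna5, a Kv1 pore subunit that carries an ultrarapid delayed rectifier current, had 2 to 5 reads in each library, close to the limit of detection. Kcnd2 and Kcnc1 are not analysed here. Kcng2, an electrically silent subunit that passes no current alone and modifies other Kv channels, was the most abundant Kcn gene in all 4 libraries, at 17.9 RPKM in the control, 17.5 with miR-106b, 21.3 with miR-93, and 13.8 under miR-25. It was within 1.3-fold of the control with each mimic, although the miR-25 value was at the edge of that limit with a log2 fold change of −0.38 (−0.53 to −0.23).

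Both delayed rectifier genes that shape late repolarization were lower with miR-25. Kcnh2, the pore of the rapid delayed rectifier, was at 6.22 RPKM in the control, 5.85 with miR-106b, 9.08 with miR-93, and 3.03 under miR-25. It was near the control with miR-106b and on opposite sides of it with the other mimics, at log2 values of −0.09 (−0.24 to 0.06), 0.55 (0.41 to 0.69) and −1.04 (−1.23 to −0.85). Kcnq1, the pore of the slow delayed rectifier, was at 9.15 RPKM in the control, 7.10 with miR-106b, 7.46 with miR-93, and 4.91 under miR-25. All 3 mimic libraries lay below the control for this gene, and the log2 fold changes were −0.37 (−0.50 to −0.24), −0.30 (−0.43 to −0.17) and −0.90 (−1.05 to −0.75), of which the last alone was past 1.3-fold. Kcnh2 over Kcnq1 within a library was 0.679 (0.614 to 0.751) in the control, 0.824 (0.7501 to 0.906) with miR-106b, 1.22 (1.12 to 1.33) with miR-93 and 0.617 (0.542 to 0.702) with miR-25. Kcnh2 thus exceeded Kcnq1 in the miR-93 library and was below it in the other 3. Beside these values, the summed cardiomyocyte markers of the miR-25 library were 0.613 times the control, as given above. Kcnq5, a relative of Kcnq1 best known from neurons and smooth muscle, was between 0.749 and 1.12 RPKM and within 1.3-fold throughout.

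Kcne1, the small auxiliary subunit that slows Kcnq1 channels, moved apart from its pore. It was at 1.51 RPKM on 20 reads in the control, 2.47 on 43 reads with miR-106b, 0.814 on 13 reads with miR-93, and 3.32 on 53 reads under miR-25. Here miR-106b and miR-93 lay on opposite sides of the control, but both intervals held 0, with log2 fold changes of 0.71 (−0.08 to 1.56) and −0.89 (−2.02 to 0.19). The value with miR-25 was 1.14 (0.37 to 1.96). Between the mimics that share a seed, Kcne1 was lower with miR-93 than with miR-106b by a log2 value of −1.60 (−2.62 to −0.68). Kcne1 over Kcnq1 within a library was 0.165 (0.1002 to 0.256) in the control, 0.348 (0.250 to 0.472) with miR-106b, 0.109 (0.0579 to 0.187) with miR-93 and 0.677 (0.502 to 0.897) with miR-25. The interval with miR-25 overlapped none of the others. Kcne4, another auxiliary subunit of this family, inhibits Kcnq1. It was at 3.01 RPKM in the control and between 2.30 and 3.03 with the mimics. With miR-106b it was past 1.3-fold lower, at a log2 value of −0.39 (−1.04 to 0.25), and its interval included 0 with each mimic.

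**Figure D2:**
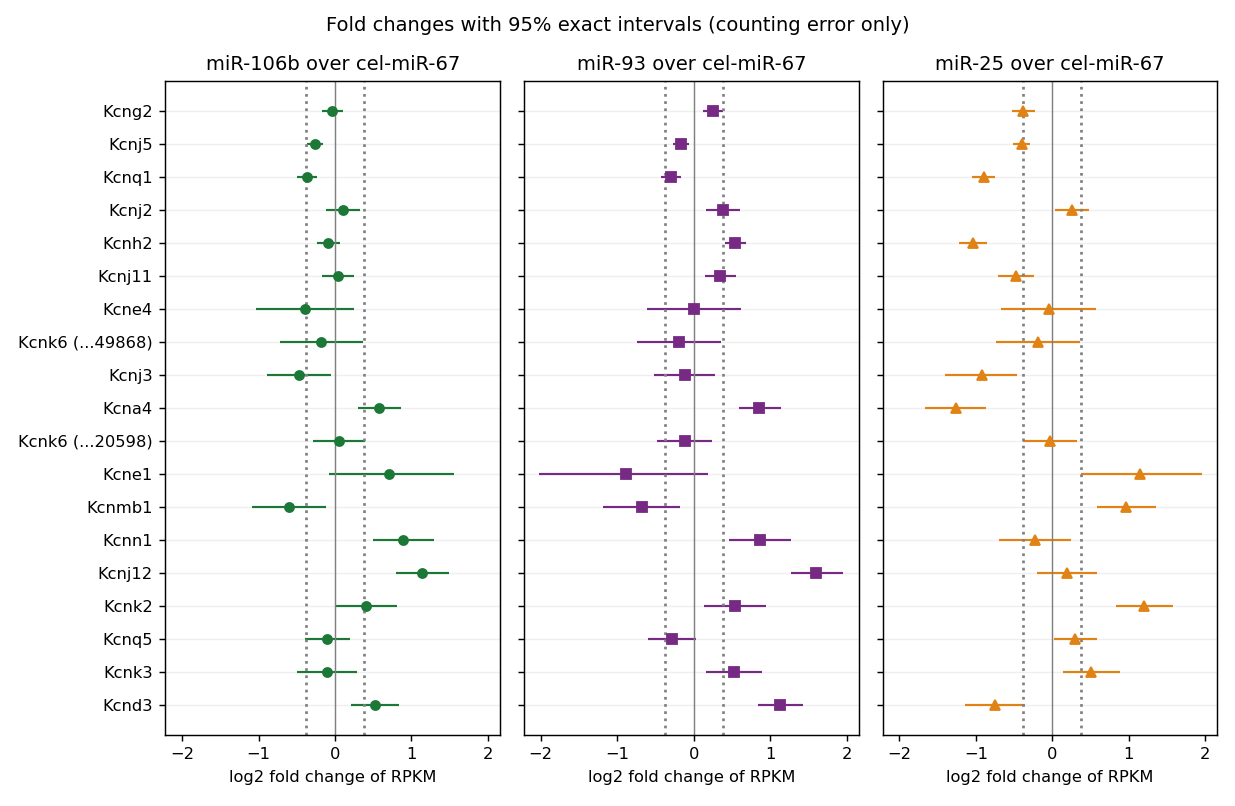
Log2 fold change of RPKM over the cel-miR-67 library (horizontal axis) of the same 19 Kcn rows, with 1 panel for each mimic, bars for 95% exact intervals from recovered reads and dotted lines at 1.3-fold in either direction. Kcnj12 is farthest to the right with miR-93 at 1.60, and Kcna4 farthest to the left with miR-25 at −1.26.

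Among the inward rectifiers, Kcnj12 was higher with the mimics that share a seed, and its close relative Kcnj2 stayed nearer to the control. Both encode pores of the strong inward rectifier that holds the resting potential of ventricular cells. Kcnj12 was at 0.981 RPKM in the control, 2.16 with miR-106b, 2.98 with miR-93, and 1.12 under miR-25. Its control level was under the RPKM limit, so it entered only by being higher in a mimic library. The miR-25 library was close to the control and the others were well above it, at log2 values of 1.14 (0.80 to 1.495), 1.60 (1.27 to 1.95) and 0.19 (−0.20 to 0.59). Kcnj2 was at 7.41, 7.97, 9.68 and 8.87 RPKM in the same order of libraries, at log2 values of 0.11 (−0.12 to 0.33), 0.39 (0.17 to 0.61) and 0.26 (0.04 to 0.48), of which the value with miR-93 was just past 1.3-fold. Kcnj12 over Kcnj2 was 0.132 (0.104 to 0.168) in the control and 0.126 (0.103 to 0.154) with miR-25, and 0.271 (0.232 to 0.317) and 0.308 (0.266 to 0.355) with miR-106b and miR-93, so the pair of libraries with the shared seed stood clear of the other two. Kcnj4, the third pore of this current, had 1 to 10 reads per library.

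**Figure D3:**
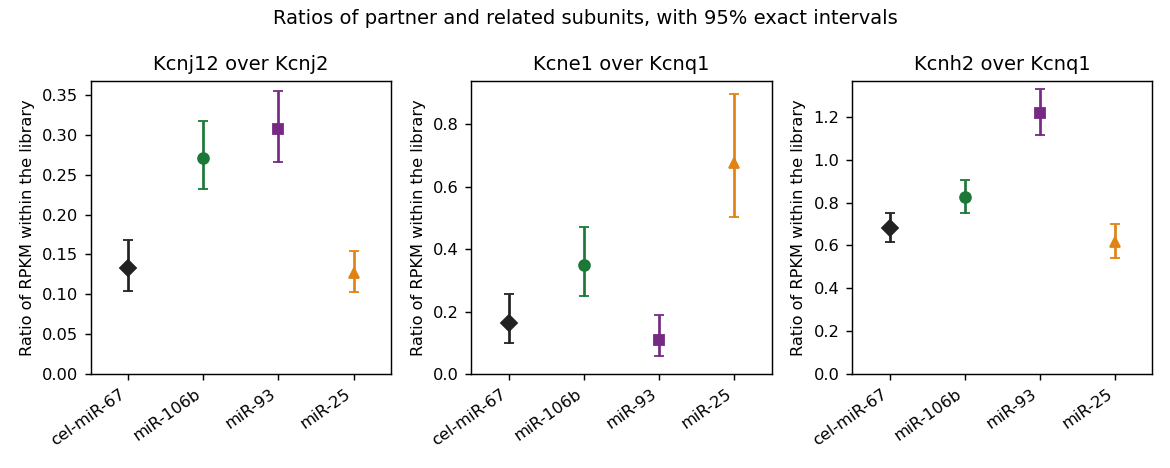
Ratio of the RPKM of 2 subunits within a library (vertical axes, from 0) for Kcnj12 over Kcnj2, Kcne1 over Kcnq1 and Kcnh2 over Kcnq1, with 1 point for each library and bars for 95% exact intervals. Kcnj12 over Kcnj2 is highest with miR-106b and miR-93, Kcne1 over Kcnq1 with miR-25, and Kcnh2 over Kcnq1 with miR-93.

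Kcnj3 and Kcnj5 encode the subunits of the acetylcholine-gated inward rectifier, best known from atrium and nodal tissue. Kcnj5 was the second most abundant Kcn gene in the control, at 12.8 RPKM, with 10.6 RPKM in the miR-106b library, 11.4 for miR-93 and 9.65 for miR-25. All 3 mimic libraries were below the control, and the value with miR-25 was past 1.3-fold with a log2 fold change of −0.40 (−0.51 to −0.29). Kcnj3 was at 2.44 RPKM in the control, 1.77 with miR-106b, 2.24 with miR-93, and 1.29 under miR-25. It was lower with miR-106b (−0.47, −0.88 to −0.05) and miR-25 (−0.92, −1.40 to −0.46) and near the control with miR-93 (−0.12, −0.52 to 0.28). Kcnj3 over Kcnj5 was between 0.133 and 0.197 in the 4 libraries, and the intervals overlapped. The 4 atrial markers summed to 0.991, 0.292 and 2.29 times the control in the same order of mimics. Nppa was the highest of them in each library, at 1860 RPKM in the control and 1607, 261 and 4425 in the mimic libraries. Log2 fold changes were 2.11, 3.04 and −0.70 for Myl7, 1.66, 0.85 and 0.12 for Myl4, and −0.47, −0.50 and −0.19 for Sln. The low sum of the miR-93 library thus went with lower Nppa and Sln, while Myl7 and Myl4 were higher there. In the miR-25 library Nppa alone was past 1.3-fold higher, and Myl7 was lower. The part of these markers in the Kcnj3 and Kcnj5 values was not tested.

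Kcnj11 encodes the pore of the ventricular ATP-sensitive potassium channel, which opens when the energy supply falls and works together with the sulfonylurea receptors Abcc8 and Abcc9. It was at 4.80 RPKM in the control, 4.92 with miR-106b, 6.12 with miR-93, and 3.45 under miR-25. The miR-93 library was highest and the miR-25 library lowest, and miR-25 alone was past 1.3-fold, with a log2 fold change of −0.48 (−0.71 to −0.24). Abcc9 was also lowest with miR-25, at 11.5 RPKM against 16.6 in the control, and Abcc8 was lower than the control's 4.04 RPKM with each mimic, at 2.50, 2.98 and 2.05 RPKM. Kcnj11 over Abcc9 was 0.289 in the control and between 0.301 and 0.366 with the mimics, and Abcc8 over Abcc9 was 0.244 in the control and between 0.164 and 0.186 with the mimics. Kcnj8, the pore of the same channel type in vascular smooth muscle and pericytes, did not reach the limit. It was at 0.506 RPKM in the control on 29 reads, 0.412 and 0.478 with miR-106b and miR-93, and 0.929 with miR-25 on 64 reads.

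Kcnmb1, the auxiliary subunit of the large-conductance calcium-activated channel in smooth muscle, followed the reverse order of libraries. Its level was 1.19 RPKM in the control, 0.787 with miR-106b, 0.747 with miR-93, and 2.33 under miR-25, so that the libraries high for Kcna4 and Kcnd3 were low here. Log2 fold changes were −0.60 (−1.08 to −0.12), −0.68 (−1.18 to −0.18) and 0.96 (0.58 to 1.36). The summed smooth muscle and pericyte markers were 2.69 times the control in the miR-25 library, with Acta2, Tagln, Cnn1, Myh11 and Rgs5 at log2 fold changes of 1.43, 1.45, 1.65, 0.99 and 1.58, and Cspg4 at −0.82. Their part in the Kcnmb1 and Kcnj8 values was not tested. In the RefSeq annotation Kcnmb1 overlaps Kcnip1, and the sources used here do not say whether strand was used in counting, so reads of overlapping genes cannot be told apart. The same limit holds for Kcnd3, Kcne1, Kcng2, Kcnk2, Kcnk3, Kcnn1, Kcnq1, Kcnq5 and Kcnk6, each of which overlaps at least 1 other locus there. Kcnma1, the pore of this channel, is not analysed here.

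Tandem-pore channels carry background potassium currents that are open at rest. Kcnk2, a mechanically gated channel of this family, was at 0.917 RPKM in the control, 1.21 with miR-106b, 1.33 with miR-93, and 2.12 under miR-25. It was the only one of the 19 that was past 1.3-fold higher with all 3 mimics, at log2 values of 0.40 (0.00 to 0.81), 0.54 (0.14 to 0.94) and 1.21 (0.84 to 1.59), and its control level was under the RPKM limit. Kcnk3, an acid-sensitive channel of the same family, was at 0.741 RPKM in the control, 0.689 with miR-106b, 1.07 with miR-93, and 1.05 under miR-25. It was higher with miR-93 (0.53, 0.17 to 0.90) and miR-25 (0.51, 0.14 to 0.88) and near the control with miR-106b (−0.10, −0.50 to 0.29). Its control level was also under the limit. The rows of Kcnk6 were at 2.62 and 2.14 RPKM in the control and within 1.3-fold with every mimic, and as 1 symbol under 2 identifiers their reads may be split between near-identical copies.

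Kcnn1, a small-conductance calcium-activated channel, was at 1.02 RPKM in the control, 1.89 with miR-106b, 1.87 with miR-93, and 0.874 under miR-25. As with Kcnj12, the libraries of the shared seed lay together above the others, with log2 fold changes of 0.88 (0.49 to 1.29) and 0.87 (0.47 to 1.28), against −0.23 (−0.70 to 0.25) with miR-25. Kcnn2, its relative best known from atrium, had 17 reads in the control, 40 with miR-106b, 19 with miR-93, and 6 under miR-25, for 0.426, 0.764, 0.395 and 0.125 RPKM.

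Direct ratios between the mimic libraries do not use the control. Kcna4 was lower with miR-25 than with miR-93 by a log2 value of −2.12 (−2.48 to −1.76), Kcnd3 by −1.88 (−2.22 to −1.55), Kcnh2 by −1.58 (−1.76 to −1.41), Kcnj12 by −1.41 (−1.72 to −1.12) and Kcnn1 by −1.10 (−1.502 to −0.70). In the other direction, Kcne1 was higher with miR-25 than with miR-93 by 2.03 (1.14 to 3.03), Kcnmb1 by 1.64 (1.22 to 2.08) and Kcnk2 by 0.67 (0.36 to 0.98). Kcnk3 and Kcnj2, by contrast, differed little between these libraries, at −0.02 (−0.33 to 0.29) and −0.13 (−0.32 to 0.07). The mimics that share a seed also differed for several members. Kcnh2 (0.63, 0.50 to 0.77), Kcnd3 (0.61, 0.37 to 0.85), Kcnk3 (0.64, 0.29 to 0.98) and Kcnj12 (0.46, 0.23 to 0.70) were higher with miR-93 than with miR-106b, whereas Kcnn1 and Kcnmb1 were at −0.02 (−0.33 to 0.29) and −0.08 (−0.59 to 0.44). The median of miR-93 over miR-106b was 0.28 over the 19 genes and 0.00 over all genes. Kcnd3, Kcnj12, Kcnk2, Kcnk3 and Kcnq5 entered the 19 only through mimic libraries, so the RPKM limit bears on these ratios and this median. Kcnk3 passed it with miR-93 and miR-25 but not with miR-106b, at 1.07, 1.05 and 0.689 RPKM. The limit thus favoured its higher value with miR-93.

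Summed over all members of a class, measured or low, the inward rectifiers were the most abundant, at 30.0 RPKM in the control, 29.3 for miR-106b, 34.2 for miR-93 and 26.5 for miR-25. Pore subunits of the Kcnq and Kcnh families summed to 16.5, 14.0, 17.4 and 9.32 RPKM, so that this class was lowest relative to the control with miR-25, at 0.565 times. Kv1 to Kv4 pore subunits summed to 4.34, 5.66, 7.04 and 3.08 RPKM, or 1.31, 1.62 and 0.710 times the control. Auxiliary proteins went the other way with miR-25, at 12.2 RPKM or 1.35 times the control. Most of that rise lay in Kcne1, at 3.32 RPKM against 1.51, and Kcnmb1, at 2.33 against 1.19, of 14 members. Calcium- or sodium-activated channels summed to 2.00, 3.32, 2.89 and 1.78 RPKM, or 1.66, 1.44 and 0.889 times the control. Tandem-pore channels were close to level, between 7.61 and 8.58 RPKM. All 60 rows together summed to 88.5 RPKM in the control, 86.8 with miR-106b, 99.0 with miR-93, and 76.0 under miR-25. The 5 highest genes of each library held between 53.5% and 60.4% of its sum, so the totals mostly follow a few genes. These were Kcng2, Kcnj5, Kcnq1, Kcnj2 and Kcnh2, with Kcnj11 in place of Kcnh2 under miR-25.

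**Figure D4:**
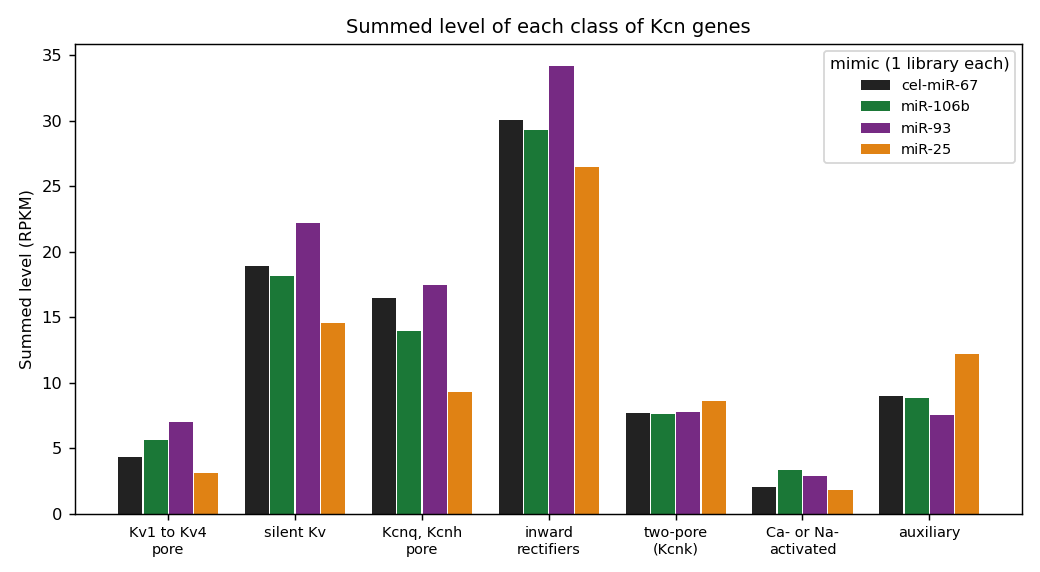
Summed RPKM (vertical axis, from 0) of the members of each class of Kcn genes, with 1 bar for each library and no replicates. Inward rectifiers are highest throughout, the Kcnq and Kcnh class is lowest with miR-25 at 9.32 RPKM, and auxiliary proteins are highest with miR-25 at 12.2 RPKM.

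The 41 members that did not reach the limit had a median level between 0.138 and 0.160 RPKM on a median of 8 to 13 reads in a library. Just inside the limit, the highest level in any library was 1.07 RPKM for Kcnk3 and 1.12 RPKM for Kcnq5. Just outside it stood Kcnab1, a cytoplasmic subunit of Kv1 channels, at 0.999 RPKM with miR-25, followed by Kcnj8 and Kcnrg at 0.929. Of the low members with more reads, some chosen after their values were seen were among those farthest from the control. Kcna6, a Kv1 pore subunit, had 94 reads with miR-25 against 35 in the control, for 0.515 and 0.231 RPKM, with 0.271 and 0.273 RPKM with miR-106b and miR-93. Kcnk5, an acid-sensitive tandem-pore channel, had 5 reads with miR-25 against 33, for 0.0530 and 0.420 RPKM, and lay between these with miR-106b and miR-93, at 0.252 and 0.264 RPKM.

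Genes that work with these channels or move potassium in other ways were taken as a list of 32 symbols, of which 24 were above the limit. For miR-106b 3 were past 1.3-fold higher and 4 lower, for miR-93 the counts were 6 and 5, for miR-25 they were 4 and 6, and these are shares between 12.5% and 25.0% of the list, beside 13.8% to 24.2% of all genes tested. Irx4, a ventricular transcription factor of the Iroquois family, whose members regulate potassium channel genes in the heart, was at 8.47 RPKM in the control, 13.1 with miR-106b, 17.2 with miR-93, and 2.46 under miR-25. Its order of libraries was that of Kcna4 and Kcnd3. Irx3 and Irx5 of the same family were highest with miR-93, at 18.1 and 5.44 RPKM against 9.34 and 3.39, and were within 1.3-fold with miR-106b and miR-25. Slc12a7, a potassium-chloride cotransporter, was at 34.6 RPKM in the control, 8.93 with miR-106b, 5.37 with miR-93, and 30.2 under miR-25, so it was low in both libraries of the shared seed, with log2 fold changes of −1.95 and −2.69. Among sodium-potassium pump subunits, Atp1b1 was highest with miR-25 at 145 RPKM against 93.3. The pump regulator Fxyd1 was below its control level of 278 RPKM with every mimic, at 196, 126 and 148 RPKM. Cav3, the caveolin of muscle, and Tmem38a, a cation channel of the sarcoplasmic reticulum, were lower under miR-25, at 51.2 RPKM against 90.5 and 20.8 against 29.9, and stayed within 1.3-fold with the other mimics.

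Other cation channel genes of the heart were measured in the same libraries for comparison, with no test of the difference from the potassium channels. Of 9 calcium channel genes (Cacn) above the limit, 2 were past 1.3-fold higher with each mimic, and 0 were lower for miR-106b, 2 for miR-93 and 4 for miR-25. Of 5 sodium channel genes, 1 was higher with each mimic and 4, 3 and 3 were lower, with medians of −0.70, −0.73 and −2.02 on the log2 scale. The higher shares were thus 22.2% of the calcium and 20.0% of the sodium channel genes. Over all genes tested, 13.8%, 17.2% and 20.9% were past 1.3-fold higher in the same order of mimics, and 13.9%, 16.9% and 24.2% lower. The medians of the calcium channel genes were −0.14, −0.07 and −0.22, against −0.04, 0.25 and −0.19 for the 19 potassium channel genes.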

How the data were processed

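Per the study's methods and the labels, the authors checked reads with FASTQC, trimmed them with Cutadapt, aligned them with STAR (version 2.7 in the submitters' processing notes) to Rnor 6.0, rounded gene counts and derived the deposited RPKM values in edgeR (rpkm function). The counting program is not given in the sources used here. Members were selected by symbol, and all 60 rows were found in the RefSeq table by Ensembl identifier or, failing that, by symbol. Both Kcnk6 rows fell on the same RefSeq entry. RefSeq was used for names, overlaps and miRNA sequences only. Fold changes are ratios of RPKM without a pseudocount, for genes above 1.0 RPKM in any of the 4 libraries and above 0 in both compared. A gene was counted as higher or lower past 1.3-fold. Since RPKM ratios of whole reads are ratios of whole numbers, reads were recovered for 15731 of 15731 genes, and 95% Clopper-Pearson intervals were computed from them (scipy 1.17.1, pandas 2.3.3, Python 3.11.15). Reads can be a multiple of the recovered number where a common factor cannot be seen, which would make an interval too wide. The recovery was tested on simulated data. Named genes were potassium channel genes known from heart muscle, members past 1.3-fold whose interval excluded 0, and the 5 highest in the control. Partner genes were named where they bind a named member or were past 1.3-fold. The members and all lists were chosen with earlier results of these data known. The alternatives varied the RPKM filter, pseudocount, scaling, and fold limit. Some genes of these lists are not reported by name here.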

Additional observations from a re-analysis of the deposited data

How the results depend on the processing

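With 1 library for each mimic, no library could be left out and no fit across samples was made. No paired analysis was possible because each group holds 1 sample and no test was run. Scaling by the upper quartile, centring on the median gene and a pseudocount of 0.1 RPKM left each count of Kcn genes past 1.3-fold within 1.5 times its value, and kept the sign of each median. The median with miR-93, 0.25 over 19 genes, turned to −0.11 without an RPKM filter and to −0.06 with RPKM above 1.0 in the control library, and the median with miR-106b, −0.04, turned to 0.03 without a filter. The other alternatives kept the sign of the medians. Counts followed the RPKM filter and the fold limit, which by construction change how many genes enter or pass. The shares of all genes under these alternatives were not computed, so the counts below describe the list only. Without any RPKM filter, 17 were higher and 15 lower for miR-106b, 18 higher and 18 lower for miR-93, and 22 higher and 19 lower for miR-25. With RPKM above 2.0 in both libraries these counts were 1 and 1, 3 and 0, and 0 and 4. With RPKM above 1.0 in both libraries, 3 were higher with miR-106b, 4 higher and 0 lower with miR-93, and 2 higher with miR-25. With RPKM above 1.0 in the control library, a filter added after the values were seen, 3, 4 and 2 were higher. A pseudocount of 1 RPKM left 0 lower with miR-106b and 5 higher and 1 lower with miR-93. At 1.5-fold, 3 were higher and 1 lower with miR-106b and 4 higher with miR-93. At 2-fold, 1 was higher and 0 lower for miR-106b, 2 higher and 0 lower for miR-93, and 2 higher and 2 lower for miR-25. Asking also that the interval exclude 0 left 1 lower with miR-93. Of 252 recomputed log2 fold changes of single named genes, 243 stayed within their interval, and the other 9 moved outside it with a pseudocount of 1 RPKM. Depth limits the low members most, at a median of 8 to 13 reads.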
